A study of Mus musculus with 8 samples.

Results

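The sarcomeric myosin heavy chains of striated muscle were followed through 8 genes: Myh1, Myh2, Myh3, Myh4, Myh6, Myh7, Myh7b and Myh8. They were picked by symbol, as a family chosen with earlier results of these data known, from the 53647 Ensembl gene identifiers of the count files. All 8 had an identifier there, and all 8 were among the 15603 genes that passed the filter on low counts. Their identifiers are ENSMUSG00000056328 (Myh1), ENSMUSG00000033196 (Myh2), ENSMUSG00000020908 (Myh3), ENSMUSG00000057003 (Myh4), ENSMUSG00000040752 (Myh6), ENSMUSG00000053093 (Myh7), ENSMUSG00000074652 (Myh7b), ENSMUSG00000055775 (Myh8).

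A myosin heavy chain forms the motor head and the rod of the thick filament, and muscle builds thick filaments from isoforms that differ in speed. Developing and regenerating fibres use the embryonic (Myh3) and perinatal (Myh8) isoforms, adult fast fibres use the IIa (Myh2), IIx (Myh1) and IIb (Myh4) isoforms, and slow fibres and heart use the beta isoform (Myh7). Myh6 encodes the alpha isoform of heart muscle, and Myh7b an ancient relative of the slow and cardiac pair. The developmental and fast genes form a cluster on chromosome 11, Myh6 and Myh7 are neighbours on chromosome 14, and Myh7b lies on chromosome 2.

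RNA came from primary myotubes of wild-type mice, the multinucleated fibres that muscle precursor cells form in culture when they fuse. The precursors had been isolated from the limbs of pups at 2 to 3 days of age and differentiated in 5% horse serum, with harvest 72 h after differentiation. The 4 groups of 2 libraries were a control, for which no dose is stated, and cultures given interleukin 6 (IL6), leukaemia inhibitory factor (LIF) or oncostatin M (OSM) for 48 h at 250 ng/ml, cytokines that share the receptor subunit gp130. Nothing in the labels tells whether the libraries of a group come from separate animals or dishes, so p-values measure the spread between these samples, which may be technical.

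Gene counts ran from 29482077 to 30025471 per library. The 8 genes took 1.31% to 1.33% of them in the control libraries and 1.12% to 1.26% in the cytokine libraries. Levels are given as CPM, the usual rate of counts by library size, scaled between libraries and, to compare genes, divided by transcript length in kb. The label of skeletal myotubes was checked on markers: all 8 myotube markers were detected, with 132940 to 180560 counts of Acta1 and 2252 to 3877 of Ckm per library. The heart markers Nppa and Nppb had 0 counts in each library, which allows up to 3, and Myl7 had 1 count in 1 library. Other heart markers, among them Tnnt2 and Tnni3, had counts in every library and are given with Myh6 below.

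The transcripts are alike enough that reads cannot always be assigned, so the stretch that separates them best is shown. These 60 coding bases are the gap-free stretch that differed most among the 8 in an alignment of their coding sequences (GENCODE M21, each 5′ to 3′ on its own coding strand), with 25.6 differences on average between members. Capitals mark bases that differ from Myh3 in the same column.
Myh3: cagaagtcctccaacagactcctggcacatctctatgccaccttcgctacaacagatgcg
Myh8: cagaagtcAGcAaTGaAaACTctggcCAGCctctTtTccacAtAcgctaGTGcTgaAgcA
Myh1: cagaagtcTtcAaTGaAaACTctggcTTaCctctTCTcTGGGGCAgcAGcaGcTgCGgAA
Myh4: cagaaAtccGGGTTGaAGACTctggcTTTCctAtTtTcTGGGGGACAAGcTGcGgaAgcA
Myh2: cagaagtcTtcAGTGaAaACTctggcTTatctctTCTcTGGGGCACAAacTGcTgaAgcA
Myh7: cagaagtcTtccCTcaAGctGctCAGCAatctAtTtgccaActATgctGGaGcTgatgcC
Myh6: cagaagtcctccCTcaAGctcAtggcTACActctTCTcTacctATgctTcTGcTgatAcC
Myh7b: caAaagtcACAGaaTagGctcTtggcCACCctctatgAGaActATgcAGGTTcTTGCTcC
Against Myh3, 35 bases differed in Myh4, 29 in Myh1, 29 in Myh2, 28 in Myh7b, 23 in Myh8, 21 in Myh6 and 21 in Myh7. In Myh3 the stretch covers coding bases 1831 to 1890, counted from the first base of the start codon.

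Elsewhere the genes are far more alike. Coding identity was 91.7% between Myh6 and Myh7, 91.0% between Myh1 and Myh2, 80.8% between Myh3 and Myh8, and 68.8% to 72.0% between Myh7b and the others. The share of a transcript's 50-base stretches that also occur in another gene's transcript was 32.1% for Myh1, 28.9% for Myh2, 28.2% for Myh7, 22.6% for Myh6, 21.4% for Myh8, 18.9% for Myh4, 4.81% for Myh3 and 0% for Myh7b. Values of the genes with large shares are uncertain, because the handling of reads from shared stretches is not given in the sources used here. These shares do not measure the size of the error, which also depends on how abundant the genes are. On the opposite strand, 8.11% of the Myh1 exon bases overlap the gene Myhas. Of the Myh7 exon bases, 6.07% overlap Gm31251, 5.62% Mhrt and 1.65% Gm29015. The strand setting of the counting is not given either. Myh1 and the scarce Myh2 share a longer identical coding run, of 268 bases, which is not printed. The longest identical coding run of Myh6 and Myh7, 245 bases, is printed because the few Myh6 counts stand beside many Myh7 counts.
Myh6 and Myh7: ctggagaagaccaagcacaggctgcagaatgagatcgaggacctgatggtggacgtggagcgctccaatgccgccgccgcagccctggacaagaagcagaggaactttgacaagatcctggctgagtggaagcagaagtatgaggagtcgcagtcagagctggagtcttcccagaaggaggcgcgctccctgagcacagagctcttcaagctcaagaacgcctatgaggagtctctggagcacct

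The embryonic isoform led the pool in every library. By level per length, the order in control was Myh3, Myh8, Myh1, Myh7, Myh7b, Myh4, Myh2, Myh6, and the places down to Myh4 were the same in all 4 groups. In control the libraries of Myh1 and Myh7 overlapped, as did those of Myh2 and Myh6, while the other neighbours were apart. Myh2 and Myh6 also overlapped with IL6 and with OSM, and with LIF Myh6 was above Myh2.

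**Figure D1:**
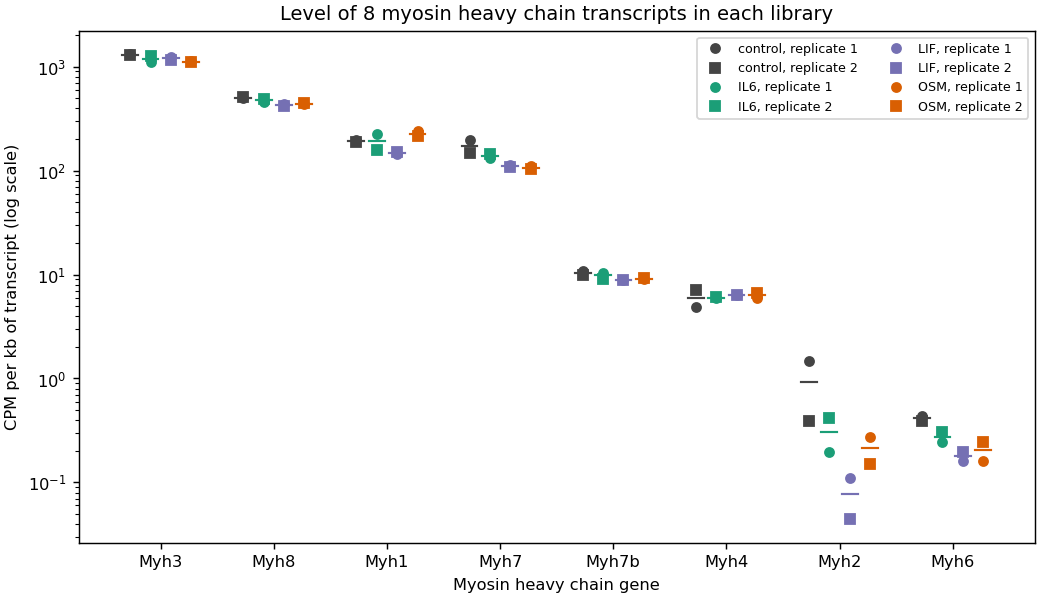
Level of each myosin heavy chain transcript in CPM per kb (log axis) in the 4 groups, with 1 point for each library and a short line at the group mean. Myh3 lies highest, at 1307 and 1289 in control, and Myh2 and Myh6 lowest.

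The slow, cardiac alpha and perinatal genes were called lower with OSM and LIF than in control, and IL6 gave no call. A call is an adjusted p under 0.05 in edgeR's quasi-likelihood test over all tested genes. With OSM the log2 change of the embryonic gene Myh3, at −0.22, was like that of the perinatal gene Myh8, at −0.20. The 2 lay on either side of the threshold (adjusted p = 0.0549 and 0.0447). Against control, 3 of the 8 were called lower with OSM (Myh6, Myh7 and Myh8), 4 with LIF (those and Myh2) and 0 with IL6, and none was called higher. Among all tested genes OSM gave calls for 21.4% (10.8% higher and 10.6% lower), LIF for 7.66% (4.2% higher and 3.46% lower) and IL6 for 0%. The libraries did not overlap for 7 of the 8 with OSM (all genes, 60.9%), 7 with LIF (52%) and 4 with IL6 (28.2%).

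The median log2 change of the 8 was −0.21 with OSM, −0.31 with LIF and −0.11 with IL6, against −0.0028, −0.0079 and 0.00062 over all tested genes. These comparisons share the control libraries. For IL6, 3 of the 8 and 795 of all genes had an unadjusted p under 0.05, and DESeq2 called 0 of the 8 and 17 of all.

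Between cytokines, 1 of the 8 was called higher with OSM than with LIF, where 8.05% of all genes were called (4.01% higher and 4.04% lower), and 4 did not overlap (all genes, 56.6%). For OSM against IL6 it was 0 where 15.5% were called (8.02% higher and 7.52% lower), with 2 not overlapping (54.3%). For LIF against IL6 it was 0 where 2.78% were called (1.76% higher and 1.02% lower), with 7 not overlapping (43.5%). For OSM against IL6, 1 of the 8 and 4406 of all 15603 genes had an unadjusted p under 0.05, and DESeq2 called 1 of the 8 and 2062 of all. For LIF against IL6, 4 of the 8 and 2295 of all had an unadjusted p under 0.05, and DESeq2 called 0 of the 8 and 483 of all.

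**Figure D2:**
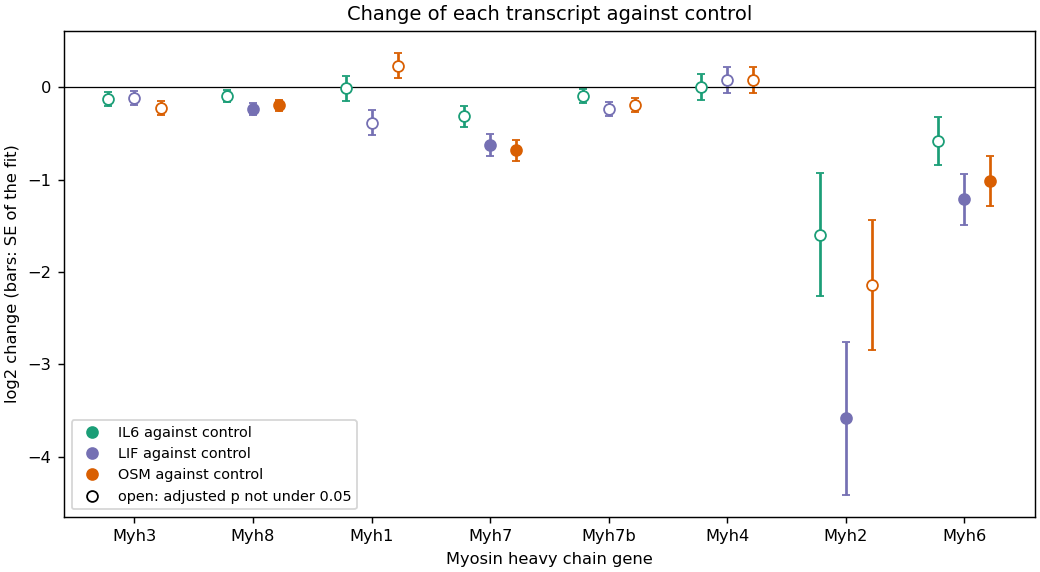
Log2 change of each myosin heavy chain transcript against control with IL6, LIF and OSM, with bars for the standard error of the fit. Filled points passed the test: Myh6, Myh7 and Myh8 with OSM and LIF, and Myh2 with LIF.

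Myh3, the embryonic isoform, stood at 1307 and 1289 CPM per kb in control, 1103 and 1269 with IL6, 1245 and 1152 with LIF, and 1120.3 and 1108 with OSM. Both control libraries were above all 6 cytokine libraries. The log2 change (± SE) was −0.22 ± 0.0758 for OSM, −0.12 ± 0.0758 for LIF and −0.13 ± 0.0758 for IL6, and none passed (adjusted p = 0.0549, 0.448 and 0.943). The OSM value was close to the threshold: DESeq2 gave an adjusted p of 0.0258, and over all alternatives it ran from 0.00979 to 0.253. It passed with no low-count filter (adjusted p = 0.0104), with only the compared groups (adjusted p = 0.0221) and with a replicate block (adjusted p = 0.0448). It also passed without IL6 replicate 1 (adjusted p = 0.0112) or IL6 replicate 2 (adjusted p = 0.00979).

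Myh8, the perinatal isoform, was at 499 and 509 CPM per kb in control, 459 and 485 with IL6, 441 and 413 with LIF, and 434 and 446 with OSM. All LIF and OSM libraries were below both IL6 libraries, which were below both controls. Myh8 fell by 0.24 ± 0.0639 on the log2 scale under LIF (adjusted p = 0.0385) and by 0.20 ± 0.0639 under OSM (adjusted p = 0.0447). Both calls were lost on leaving out either library of control, LIF or OSM, with adjusted p up to 0.408 for LIF and 0.281 for OSM. The IL6 change was −0.093 ± 0.0639 (adjusted p = 0.947), and OSM minus LIF was 0.042 ± 0.0639 (adjusted p = 0.791).

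Myh1, the IIx isoform, was the most abundant adult fast gene and the only member that separated OSM from LIF in the test. It stood at 198 and 187 CPM per kb in control, 225 and 158 with IL6, 145 and 150.1 with LIF, and 239.6 and 213 with OSM. The LIF libraries were below both controls and the OSM libraries above them, while IL6 replicate 1 was above and IL6 replicate 2 below. Myh1 was higher with OSM than LIF by 0.62 ± 0.137 on the log2 scale (adjusted p = 0.0235).

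That call was lost without control replicate 1 (0.0801), control replicate 2 (0.0734), LIF replicate 1 (0.169), LIF replicate 2 (0.108) or OSM replicate 1 (adjusted p 0.150), with the difference between 0.53 and 0.70 throughout. Against control the change was −0.38 ± 0.136 for LIF and 0.23 ± 0.136 for OSM, and neither passed (adjusted p = 0.146 and 0.277). Both passed with all libraries kept when no low-count filter was used (adjusted p = 0.00116 for LIF and 0.0462 for OSM) and with only the compared groups in the fit (0.00403 and 0.0318), and the LIF change passed with a replicate block (adjusted p = 0.0428). Both also passed with 1 IL6 library left out: without IL6 replicate 1 the adjusted p was 0.000906 for LIF and 0.00950 for OSM, and without IL6 replicate 2 it was 0.000770 and 0.0107. The IL6 libraries of Myh1 were the farthest apart of the 4 groups.

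Myh4, the IIb isoform of the fastest fibres, was at 4.85 and 7.07 CPM per kb in control, 5.90 and 6.07 with IL6, 6.29 and 6.34 with LIF, and 5.89 and 6.71 with OSM. Every cytokine library lay between the control libraries. The changes of 0.081 for OSM, 0.084 for LIF and 0.0055 for IL6 did not pass (adjusted p = 0.746, 0.815 and 0.999). They turned to −0.17 and −0.16 for OSM and LIF without control replicate 1, and were 0.39 and 0.39 without control replicate 2, which passed (adjusted p = 0.0138 and 0.0331).

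Myh2, the IIa isoform of fast oxidative fibres, was scarce and scattered, with 262 and 71 counts in control, 36 and 76 with IL6, 20 and 8 with LIF, and 49 and 27 with OSM. The LIF libraries were the lowest, and control replicate 1 was far above the other 7. Myh2 fell by 3.58 ± 0.827 on the log2 scale under LIF (adjusted p = 0.0453). The call was lost without the filter on low values (0.262) and without IL6 replicate 1 (0.0980), IL6 replicate 2 (0.0978), LIF replicate 1 (0.168) or LIF replicate 2 (adjusted p 0.284).

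The changes of Myh2 with OSM and IL6 were −2.14 ± 0.703 and −1.60 ± 0.666 (adjusted p = 0.0757 and 0.943). Without control replicate 1 the change was −2.33 for LIF and −0.89 for OSM, and without control replicate 2 the OSM change was −2.79 and passed (adjusted p = 0.00119). For Myh2, OSM minus LIF was 1.45 ± 0.985 with libraries that did not overlap (adjusted p = 0.500). It passed with only the compared groups in the fit (adjusted p = 0.0153). Myl2, the slow and cardiac regulatory light chain, was also highest in control replicate 1, with 118 counts. It had 48 in the other control and 27 to 52 in the cytokine libraries.

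Myh7, the slow beta isoform, gave the steadiest call. It stood at 196 and 147 CPM per kb in control, 132 and 144 with IL6, 113 and 109 with LIF, and 112 and 102 with OSM. All LIF and OSM libraries were below all control and IL6 libraries. LIF minus IL6 was −0.31 on the log2 scale and did not pass (adjusted p = 0.223), nor did it under 9 of 13 alternatives. It passed with no low-count filter (adjusted p = 0.000385) and with only the compared groups (adjusted p = 0.0435). Myh7 fell by 0.68 ± 0.115 on the log2 scale under OSM (adjusted p = 0.00190), a change of −37.6%, and by 0.62 ± 0.115 under LIF (adjusted p = 0.00840), a change of −35.1%.

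The OSM call of Myh7 held under all 13 alternatives, with adjusted p up to 0.0223, though the change was −0.45 without control replicate 1, the highest library. The LIF call was lost without LIF replicate 1 (0.0541) or LIF replicate 2 (adjusted p 0.0880), and without control replicate 1 the change was −0.40. The IL6 change was −0.31 ± 0.114 (adjusted p = 0.943, unadjusted 0.0209), and it passed with no low-count filter, at −0.31 (adjusted p = 0.00180), and without control replicate 2, at −0.51 (adjusted p = 0.0224). OSM minus LIF was −0.056 ± 0.115 (adjusted p = 0.852), and OSM minus IL6 was −0.37 ± 0.115, near the threshold (adjusted p = 0.0558, with 0.00567 by DESeq2 and a range of 2.89e-06 to 0.270 over alternatives). It passed with no low-count filter (adjusted p = 2.89e-06), with a replicate block (adjusted p = 0.0225), with only the compared groups (adjusted p = 0.00689), and without control replicate 1 (0.000964) or control replicate 2 (0.00123).

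Myh6, the cardiac alpha isoform, had 78 and 71 counts in control, 45 and 56 with IL6, 29 and 36 with LIF, and 29 and 45 with OSM. Both controls were above the other 6 libraries. It fell by 1.21 ± 0.274 on the log2 scale under LIF (adjusted p = 0.0157) and by 1.01 ± 0.269 under OSM (adjusted p = 0.0166), and its IL6 change was −0.58 ± 0.258 (adjusted p = 0.943). The LIF call was lost without control replicate 1 (0.0748), LIF replicate 1 (0.161) or LIF replicate 2 (adjusted p 0.0882). The OSM call was lost with DESeq2 (0.0513), and without control replicate 1 (0.0822) or OSM replicate 1 (adjusted p 0.184).

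Counts of Myh6 were 0.138% to 0.261% of those of Myh7, with which it shares the long run printed above, and the part of Myh7 reads in them was not tested. Of the 7 cardiomyocyte markers, Nppa and Nppb were at 0 and Ryr2 had 0 to 2 counts, while Tnni3 had 32 to 66 and Myl2 27 to 118. With OSM the change was 0.54 for Tnni3 and −1.17 for Myl2, and neither passed (adjusted p = 0.204 and 0.0682). Tnnt2 had −0.31 and passed (adjusted p = 0.00891). The 7 markers summed to 1914 to 2145 CPM in control, 1816 to 1873 with IL6, 1640.5 to 1831 with LIF and 1639 to 1642 with OSM. Nearly all of this was Tnnt2, which immature skeletal fibres also express.

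Myh7b, at 10.9 and 9.91 CPM per kb in control, was at 10.5 and 9.13 with IL6 and between 8.80 and 9.27 in the LIF and OSM libraries. The LIF and OSM libraries were below both controls, and IL6 replicate 1 lay between the controls. The changes were −0.23 ± 0.0776 for LIF, −0.19 ± 0.0775 for OSM and −0.089 ± 0.0772 for IL6, and none passed (adjusted p = 0.0961, 0.106 and 0.950). The LIF value passed with no low-count filter (adjusted p = 0.0466) and with a replicate block (adjusted p = 0.0421). It also passed without IL6 replicate 1 (0.0329) or IL6 replicate 2 (0.0311), and the OSM value without IL6 replicate 2 (adjusted p 0.0440).

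The make-up of the pool was described as each isoform's share of the summed level per length. The effect on these shares of reads from stretches common to several genes was not tested. With 2 libraries a side, an exact two-sided permutation test cannot go below p = 0.333, so shares were compared by overlap alone. The sum was 2217 and 2149.6 CPM per kb in control, 1936 and 2072 with IL6, 1961 and 1840.4 with LIF, and 1920.4 and 1886 with OSM, and both controls were above the other 6 libraries.

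Myh3 held 59.5% ± 0.720 of the pool in control (SD, n = 2), 59.1% ± 3.01 with IL6, 63.1% ± 0.627 with LIF and 58.5% ± 0.280 with OSM. The LIF libraries, at 63.5% and 62.6%, were above the other 6, which ran from 57.0% to 61.3%. Myh8 held 23.1% ± 0.835 in control, 23.6% ± 0.229 with IL6, 22.5% ± 0.0324 with LIF and 23.1% ± 0.764 with OSM, and its OSM libraries lay between the controls. Together the embryonic and perinatal isoforms made up 80.7% to 86.0% of the pool in all 8 libraries.

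Myh1 held 8.92% and 8.72% in control, 11.6% and 7.62% with IL6, 7.41% and 8.16% with LIF, and 12.5% and 11.3% with OSM. OSM was above control and LIF below it in both libraries, and IL6 replicate 1 lay between the OSM libraries. Myh7 held 8.85% and 6.82% in control, 6.81% and 6.96% with IL6, 5.79% and 5.93% with LIF, and 5.81% and 5.43% with OSM, so that its LIF and OSM libraries were the lowest. None of the other 4 genes held more than 0.540% in any library.

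**Figure D3:**
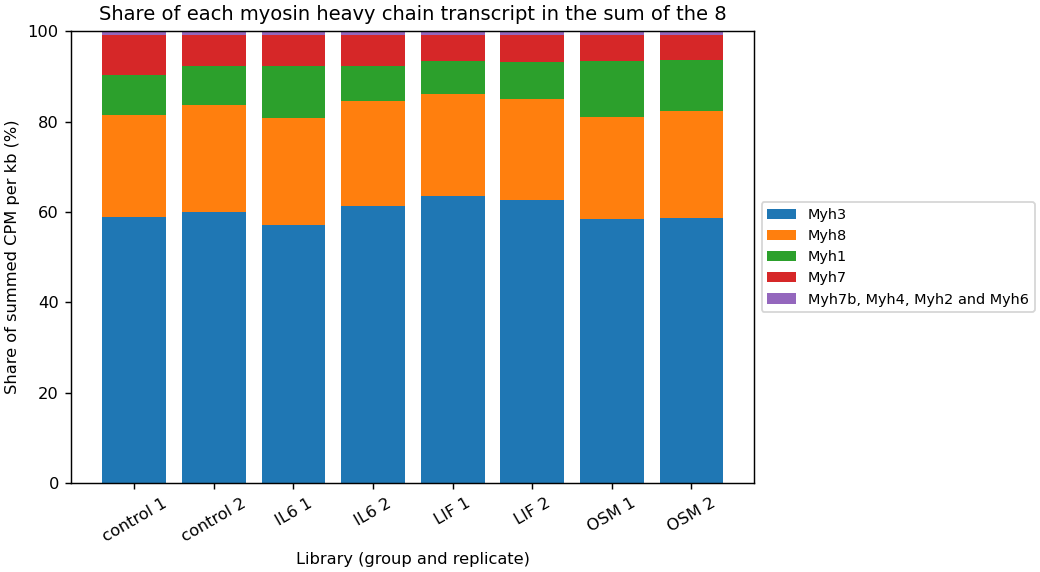
Share of each transcript in the summed CPM per kb of the 8 genes, in percent, as 1 stacked bar for each library. The Myh3 share is largest in the LIF libraries (63.5% and 62.6%), and the Myh1 share is largest in OSM replicate 1 (12.5%).

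Ratios between members do not depend on the scaling of libraries. The ratio of Myh1 to Myh7 in CPM per kb was 1.01 and 1.28 in control, 1.70 and 1.09 with IL6, 1.28 and 1.38 with LIF, and 2.15 and 2.08 with OSM. Both OSM libraries were above the other 6. The ratio of Myh7 to Myh3 was 0.150 and 0.114 in control, 0.120 and 0.114 with IL6, 0.0911 and 0.0946 with LIF, and 0.0996 and 0.0925 with OSM, and here LIF and OSM lay together below the rest. The ratio of Myh8 to Myh3 was between 0.355 and 0.416 in all libraries, with the lowest values in LIF.

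**Figure D4:**
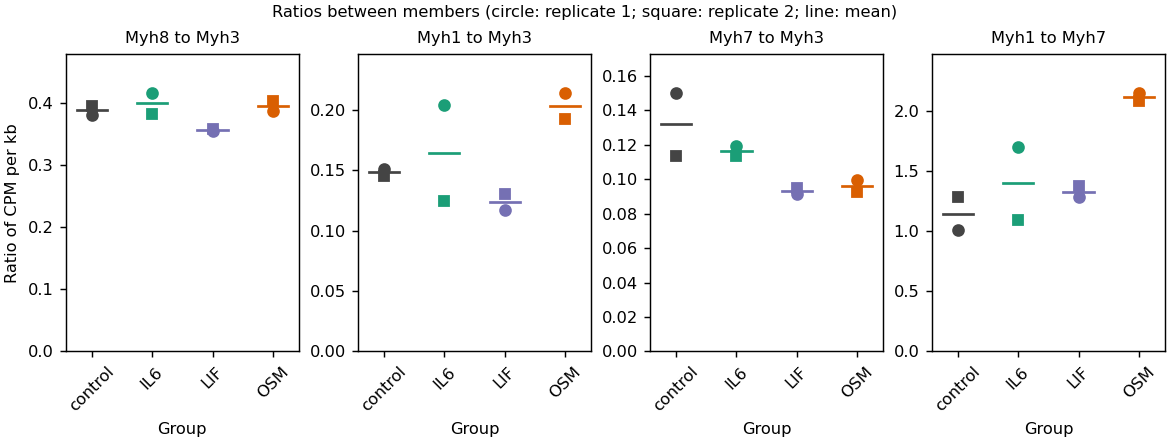
Ratios of CPM per kb between members by group, with 1 point for each library. The ratio of Myh1 to Myh7 is 2.15 and 2.08 with OSM, above all other libraries.

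Promoter windows of the 8 genes, 250 bases before to 50 after the start, came from RefSeq (GRCm38.p6), 9 in all because Myh7 has more than 1 start. The files were counted on another build, GRCm39, so the positions printed here are those of the table. The windows of Myh8 and of Myh7 nearest its gene body are shown because both genes fell with OSM and LIF, and that of Myh1 because OSM and LIF differed there. Capitals mark E-boxes (CANNTG, the letters bound by myogenic factors), a MEF2-type site (TATTTATA), TATA boxes (TATAAA) and a run of 14 bases, TTCTAATTATATCC. Both strands were searched, and on its other strand the MEF2-type site overlaps a TATA box.
Myh8, chr11:67276874-67277173, plus strand: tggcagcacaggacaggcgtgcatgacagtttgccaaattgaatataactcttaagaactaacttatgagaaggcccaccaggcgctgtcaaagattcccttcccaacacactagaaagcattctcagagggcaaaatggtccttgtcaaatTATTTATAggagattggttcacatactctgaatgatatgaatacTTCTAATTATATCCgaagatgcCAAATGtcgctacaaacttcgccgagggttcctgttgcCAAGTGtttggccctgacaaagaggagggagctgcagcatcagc
Myh1, chr11:67199852-67200151, plus strand: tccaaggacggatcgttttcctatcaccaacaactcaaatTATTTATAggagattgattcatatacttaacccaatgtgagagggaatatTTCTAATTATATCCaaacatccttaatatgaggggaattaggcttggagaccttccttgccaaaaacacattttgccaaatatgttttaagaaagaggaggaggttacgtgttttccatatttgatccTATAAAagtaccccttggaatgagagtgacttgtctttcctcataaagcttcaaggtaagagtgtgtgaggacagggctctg
Myh7, chr14:54994500-54994799, minus strand: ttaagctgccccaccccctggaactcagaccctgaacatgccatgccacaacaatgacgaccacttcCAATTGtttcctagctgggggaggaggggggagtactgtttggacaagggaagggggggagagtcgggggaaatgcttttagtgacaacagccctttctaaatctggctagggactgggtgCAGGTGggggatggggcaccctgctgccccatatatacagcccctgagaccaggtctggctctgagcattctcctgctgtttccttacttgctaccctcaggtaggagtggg

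The run of 14 bases was derived from the windows of Myh1, Myh2, Myh4 and Myh8, and it was in no other of the 32851 windows of the table. It begins 160 bases before the start in Myh1, 158 in Myh4, 125 in Myh2 and 54 in Myh8. Of these genes Myh8 fell with OSM and LIF, Myh2 fell with LIF, and Myh1 and Myh4 passed with neither. The MEF2-type site was in the windows of Myh1, Myh4 and Myh8 and in 1.70% of all windows. An E-box was in at least 1 window of Myh3, Myh4, Myh6, Myh7, Myh7b and Myh8 and in 72.3% of all windows, and a TATA box was in 13.6%. The letters TTCNNNGAA, which STAT factors bind, were in none of the 9 windows and in 8.30% of all windows. These are matches of letters, and binding was not measured.

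Myh6, Myh7 and Myh7b host the microRNAs miR-208a, miR-208b and miR-499. Their mature strands are shown (RefSeq, GRCm38.p6) because Myh6 and Myh7 were called lower, with the seed, bases 2 to 8, in capitals.
miR-208a-3p: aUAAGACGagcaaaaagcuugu
miR-208b-3p: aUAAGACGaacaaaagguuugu
miR-499-5p: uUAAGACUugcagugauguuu
The miR-208 pair share the seed UAAGACG, and that of miR-499-5p is UAAGACU. The gene of miR-208a had 0 counts in each library, which allows up to 3, and those of miR-208b and miR-499 had 0 or 1. A poly(A) library does not capture mature microRNAs, so their level was not measured.

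Light chains, which bind the neck of the heavy chain, were lower with OSM and LIF where they passed. Of 7 sarcomeric light chain genes 5 were tested. OSM gave 0 higher and 3 lower calls (all genes, 21.4% called), LIF 0 and 2 (7.66%), and IL6 0 and 0 (0%). Medians were −0.31, −0.25 and −0.12. Myl4, the embryonic and atrial essential chain, fell by 0.41 ± 0.0809 under OSM and 0.33 ± 0.0809 under LIF (adjusted p = 0.00276 and 0.0238). Under OSM, Mylpf, the fast regulatory chain, fell by 0.31 (adjusted p = 0.00452) and Myl1, the fast essential chain, by 0.23 (adjusted p = 0.0214). Myl6b fell by 0.25 under LIF (adjusted p = 0.0455).

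Among 12 tested genes for thick filament partners and myosin folding, OSM gave 3 higher and 2 lower calls (all genes, 21.4% called). LIF gave 2 and 1 (7.66%), and IL6 0 and 0 (0%). Medians were −0.076, 0.0080 and −0.065. Unc45b, the chaperone of the myosin head, rose by 0.30 under OSM and 0.40 under LIF (adjusted p = 0.0127 and 0.00581). Mybpc2, the fast myosin-binding protein C, rose by 1.16 under LIF and 0.48 under OSM (adjusted p = 0.000387 and 0.0344), and OSM minus LIF was −0.68 ± 0.140 (adjusted p = 0.00871). Mybph, a relative of the binding proteins, fell by 0.41 under LIF and 0.32 under OSM (adjusted p = 0.00329 and 0.00621). Under OSM, Mybpc1, the slow form, fell by 0.27, and Mylk2, the kinase of the regulatory light chain, rose by 0.51 (adjusted p = 0.0266 and 0.0120).

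Fast and slow partner genes were both called lower in part. Of 7 fast genes, OSM gave 1 higher and 3 lower calls (all genes, 21.4% called), LIF 1 and 1 (7.66%), and IL6 0 and 0 (0%). Their medians were −0.15, −0.089 and −0.10. Of 7 slow genes, OSM gave 0 higher and 3 lower calls, LIF 1 and 1, and IL6 0 and 0. Here medians were −0.17, −0.19 and −0.11. The fast troponins Tnni2 and Tnnc2 fell by 0.36 and 0.36 under OSM (adjusted p = 0.0141 and 0.0300), and the slow troponins Tnni1 and Tnnc1 by 0.34 and 0.41 (adjusted p = 0.00897 and 0.00144). Under LIF the changes of Tnnc2 and Tnni1 were −0.38 and −0.32 (adjusted p = 0.0475 and 0.0303). Casq1 of the fast genes and Myoz2 of the slow genes had −0.24 and −0.35 under OSM (adjusted p = 0.0259 and 0.0233). Actn3, the Z-disc actinin of fast fibres, rose by 0.58 under LIF and 0.27 under OSM (adjusted p = 0.000141 and 0.00845). Tnnt1, the slow troponin T, rose by 0.22 under LIF (adjusted p = 0.0375), and OSM minus LIF was −0.31 (adjusted p = 0.00432).

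Of 21 regulators of these genes, OSM gave 1 higher and 5 lower calls (all genes, 21.4% called). LIF gave 1 and 3 (7.66%), and IL6 0 and 0 (0%). Medians were −0.095, −0.093 and −0.037. Myog, the factor of terminal differentiation, fell by 0.53 under OSM and 0.43 under LIF (adjusted p = 0.000696 and 0.00826). The MEF2 factors Mef2a and Mef2c fell by 0.38 and 0.29 under OSM (adjusted p = 0.000531 and 0.00435) and by 0.27 and 0.27 under LIF (adjusted p = 0.0140 and 0.0138). Myf6, a myogenic factor of mature fibres, rose by 0.51 under OSM and 0.46 under LIF (adjusted p = 0.00901 and 0.0332). Tead4 and Hdac4 fell by 0.35 and 0.23 under OSM (adjusted p = 0.0374 and 0.0361).

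**Figure D5:**
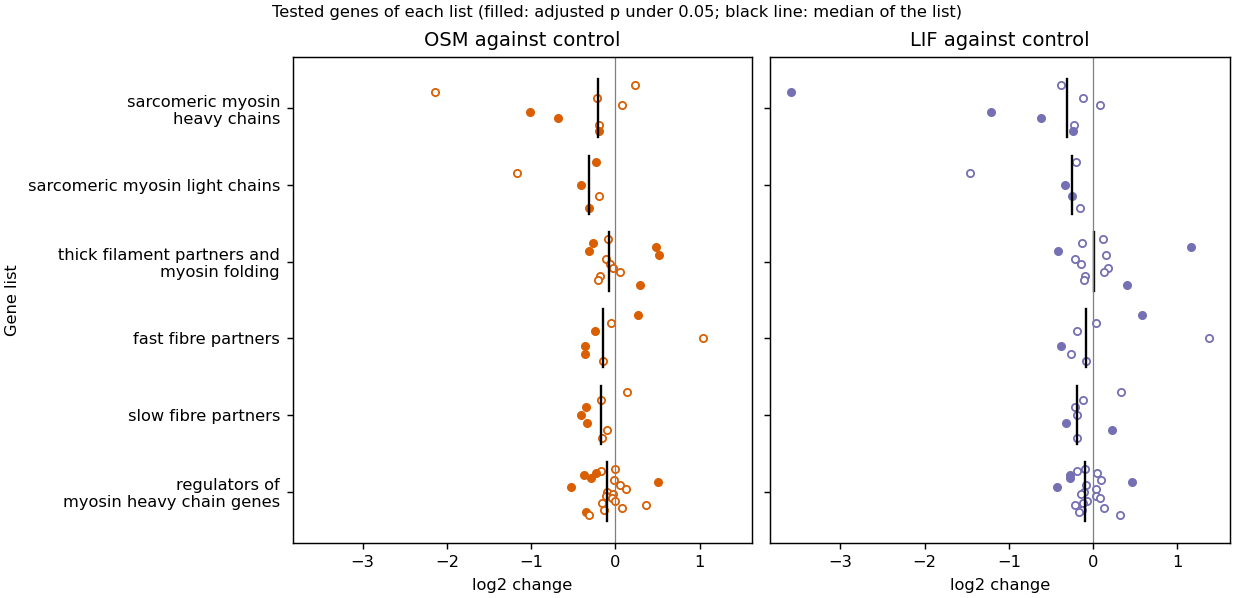
Log2 change against control of each tested gene, by list, with OSM and LIF side by side. Filled points passed the test and black lines are list medians, which with OSM are −0.21 for the heavy chains and −0.31 for the light chains.

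Markers of the cells in the dish were read beside these results. The 8 myotube markers summed to 12809 to 13798 CPM in control, 11043 to 12592 with IL6, 12242 to 12812 with LIF and 11548 to 11695 with OSM. Among them Des, the muscle intermediate filament, rose by 0.30 under OSM and 0.55 under LIF on the log2 scale (adjusted p = 0.00411 and 0.000181), and Myog, a myogenic transcription factor, fell by 0.53 and 0.43 (adjusted p = 0.000696 and 0.00826). The 3 satellite cell markers (Pax7, Myf5 and Cdh15) summed to 158 to 178 CPM in control, 162 to 173 with IL6, 189 to 192 with LIF and 193 to 208 with OSM, and under OSM Pax7 rose by 0.39 and Myf5 by 0.82 (adjusted p = 0.000853 and 0.0316). In bulk RNA, fewer myotubes and less myosin RNA in each cannot be told apart, and the part of these markers in the falls of Myh6, Myh7 and Myh8 was not tested.

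Markers of other cell types were low or rested on 1 gene. The 6 fibroblast markers summed to 183 to 320.2 CPM in control, 103 to 174 with IL6, 133 to 196 with LIF and 87.5 to 103 with OSM, mostly Col1a1, with Lum at 0. Col1a1 had a log2 change of −1.61 with OSM, which did not pass (adjusted p = 0.0858). Of the 4 fibroblast genes tested, 3 had a higher value with OSM, and Pdgfra, a receptor of fibroblasts and related stromal cells, rose by 0.53 (adjusted p = 0.0193). The 4 smooth muscle markers summed to 533 to 652 CPM in control, 511 to 576 with IL6, 613 to 646 with LIF and 734 to 738 with OSM, nearly all Acta2, with 2 to 9 counts of Myh11. Acta2, smooth muscle actin, rose by 0.31 under OSM (adjusted p = 0.0233) and Lmod1, an actin nucleator, by 0.89 under LIF (adjusted p = 0.0116), while Cnn1 had −0.61 and −0.55 and did not pass (adjusted p = 0.438 and 0.612). In any library the 4 endothelial markers summed to at most 1.74 CPM, the 4 macrophage markers to at most 4.55 and the 3 glial markers to at most 2.72. Of the macrophage markers, Cd68 rose by 1.03 under OSM (adjusted p = 0.00187), while Adgre1 had 0 or 1 count.

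Genes most like the leading members were found by Pearson r of log2 CPM over the 8 libraries, among 9413 genes with a mean of at least 10 CPM. For Myh3 they were Cyc1, a subunit of the respiratory chain (r = 0.979), Maea (0.974), Lamtor3 (0.972), Ppp6r2 (0.971) and Dlg2 (0.971). For Myh8 they were Lmod2, which acts on actin filaments of striated muscle (r = 0.987), Znrf3 (0.975), Tdp1 (0.974), Sptssa (0.973) and Cotl1 (0.972). The points share their libraries and groups, and r is given as a description.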

How the data were processed

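The authors deposited whole-number counts of reads for each gene, in a file for each library. The submitters' processing notes name FastQC 0.11.9, MultiQC 1.12, Trim Galore 0.6.5, STAR 2.7.3a, HTSeq 0.11.1 and DESeq2 1.34.0, and the build GRCm39. Their settings, the annotation release and the strand setting are not given in the sources used here. The library kit selects poly(A) mRNA and keeps the strand, per the labels' protocols. Entries that name no gene held 11.7% to 12.7% of the recorded reads and were kept out. Among these, the entry for alignments that are not unique held 4.40% to 4.77% of the recorded reads. Whether such reads were also counted for a gene is not given.

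Symbols came from GENCODE M21 (GRCm38), which holds 52093 of the 53647 identifiers. Counts were tested in R 4.3.3 with edgeR 4.0.16: filterByExpr with a minimum count of 10, TMM scaling, a robust quasi-likelihood fit of 4 group means to 8 libraries (4 residual degrees of freedom), 6 comparisons, and Benjamini-Hochberg adjustment over all tested genes in each. SEs were derived from the F statistics, and the scripts were tested on simulated data. Levels per length divide CPM by the longest protein-coding transcript (6016 to 6230 bases in the 8 genes). Intervals and floors on counts cover counting error only, and precision is lowest for Myh2 and Myh6. Replicates of a group differed by more than counting error (chi-square per gene 2.97 to 12.0).

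The named genes include the 8 members and the genes of the role lists that were called with OSM or LIF against control. They also include the 5 genes of highest r for each of the 2 most abundant members. The members and lists were chosen with earlier results of these data known. Alternatives were DESeq2 1.42.0, RLE size factors, no low-count filter, only the compared groups, a replicate block, other lengths, and each library left out.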

Additional observations from a re-analysis of the deposited data

How the results depend on the processing

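Scaling by RLE factors changed no call of a member. Without a low-count filter the number of members called became 5 for OSM and 5 for LIF against control (with LIF, Myh1 and Myh7b gained and Myh2 lost), 1 for IL6 against control, 2 for OSM against IL6 and 2 for LIF against IL6. With only the compared groups it became 5 for OSM and 5 for LIF against control, 2 for OSM against LIF, 1 for OSM against IL6 and 1 for LIF against IL6, and DESeq2 gave 1 for OSM against IL6. Groups share replicate numbers, but the deviations of same-numbered libraries correlated at 0.00708 to 0.181 across genes, not all over 0.1, so the numbers were not taken as pairs. With a replicate block 1 member was called for OSM against IL6, and the Myh2 call with LIF was lost (adjusted p = 0.0541), while Myh1 and Myh7b with LIF (adjusted p = 0.0428 and 0.0421) and Myh3 with OSM (adjusted p = 0.0448) were gained. With each library left out in turn the number was 1 to 6 for OSM, 0 to 5 for LIF and 0 to 1 for IL6 against control, 0 to 1 for OSM against LIF, 0 to 1 for OSM against IL6 and 0 to 1 for LIF against IL6. A library left alone in its group was assumed to vary like the other groups. The cause of these shifts was not tested.

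Over all genes, IL6 against control went from 0 calls to 17 with DESeq2, 97 without a filter and 9 with the block. LIF against IL6 went from 434 to 985 without a filter, 826 with the block and 346 with only these groups. OSM against LIF went from 1256 to 2928 with only these groups. OSM against control went from 3335 to 3704 without a filter, 3967 with the block and 3430 with only these groups. LIF against control went from 1195 to 1702, 1670 and 1283 in the same settings. OSM against IL6 went from 2426 to 2843, 3000 and 2065, and to 2062 with DESeq2. Leaving out libraries gave 1622 to 4067 calls for OSM, 316 to 1688 for LIF and 0 to 221 for IL6 against control, 437 to 1764 for OSM against LIF, 1105 to 2713 for OSM against IL6 and 82 to 739 for LIF against IL6.

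Some small log2 changes turned sign. Myh4 in OSM against LIF was 0.00275 without a filter. With libraries left out, against control Myh4 ranged over −0.17 to 0.39 (OSM), −0.16 to 0.39 (LIF) and −0.24 to 0.31 (IL6), and with IL6 Myh1 over −0.29 to 0.22 and Myh7b over −0.19 to 0.0044. In OSM against LIF the ranges were −0.10 to 0.092 for Myh4, −0.13 to 0.47 for Myh6, −0.12 to 0.0083 for Myh7 and −0.0044 to 0.090 for Myh8. In OSM against IL6 they were −1.04 to 0.11 for Myh2, −0.18 to 0.016 for Myh3, −0.014 to 0.17 for Myh4 and −0.19 to 0.0080 for Myh7b, and in LIF against IL6 −0.080 to 0.12 for Myh3.

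The share of Myh3 with OSM was 58.1% with no length correction and 58.3% with coding lengths. With merged exons of all annotated transcripts, which make Myh8 11772 bases long, it was 68.7% in control, 68.3% with IL6, 72.2% with LIF and 67.3% with OSM. The share of Myh8 was then 14.0% in control, 14.3% with IL6, 13.5% with LIF and 13.9% with OSM, against 23.1%, 23.6%, 22.5% and 23.1% with the lengths used. Both of these lengths, from GENCODE M21, were chosen after seeing the data, and the planned lengths from RefSeq proteins were not run. Counts limit Myh2 and Myh6 most, with as few as 8 and 29 in a library.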

Other observations

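Other myosin II heavy chain genes were read beside the 8. Of 6 genes 4 were tested. OSM gave 0 higher and 1 lower calls (all genes, 21.4% called), LIF 0 and 1 (7.66%), and IL6 0 and 0 (0%). Myh10, a non-muscle heavy chain, had 4182 and 4480 counts in control, 4028 and 4219 with IL6, 3637 and 3493 with LIF, and 2712 and 3117 with OSM. All OSM libraries were below all LIF libraries, which were below the other 4. Myh10 fell by 0.57 ± 0.0698 on the log2 scale under OSM (edgeR adjusted p = 5.48e-05) and by 0.30 ± 0.0694 under LIF (adjusted p = 0.0186), and OSM minus LIF was −0.28 ± 0.0699 (adjusted p = 0.0257). Myh9, the most abundant non-muscle form here, had 26330 to 32054 counts and changes of 0.0064 with OSM and −0.22 with LIF that did not pass (adjusted p = 0.959 and 0.0578), while OSM exceeded LIF by 0.22 ± 0.0643 (adjusted p = 0.0495). Myh13, the extraocular form, had 24 to 43 counts, Myh14 5 to 11 and Myh15 1 to 6.

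Non-coding genes at the myosin loci, chosen after their values were seen, were scarce. Myhas had 12 to 32 counts, Mhrt 1 to 8 and 2310065F04Rik 23 to 43. Neither Myhas nor 2310065F04Rik was called in any of the 6 comparisons, and Mhrt was not tested. In GENCODE M21, 8.11% of the Myh1 exon bases overlap Myhas on the opposite strand. For Myh7 this was 6.07% with Gm31251, 5.62% with Mhrt and 1.65% with Gm29015. The strand setting of the counting is not given in the sources used here, so reads of these pairs may not be told apart.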
